A study of Homo sapiens with 12 samples.

Results

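The regions described here are the N4-acetylcytidine (ac4C) peaks of human chromosome 20 in RBE cells, an established intrahepatic cholangiocarcinoma line. They were chosen by the chromosome in the deposited peak lists, with the ratio of peak numbers between the lists already known, so that ratio and the peak counts behind it are given as a description without a test. Chromosome 20 held 812 of the 34365 peaks of the control list (2.36%) and 785 of the 28047 peaks of the knockdown list (2.80%). The control cells carried the hairpin labelled sh-NC and the knockdown cells a hairpin against NAT10 delivered by lentivirus. Per the labels' protocols, transduced cells were selected with puromycin and resistant colonies were expanded. The labels do not say how many colonies went into each line. RNA was fragmented and precipitated with an ac4C antibody, with input kept aside, in 3 replicates per arm, which gave 12 libraries. The labels name the molecule as polyA RNA and the protocol starts from total RNA. The files hold 1 list per arm and none per replicate, so no spread between replicates and no p-value can be given, and the read depth is unknown.

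ac4C is an acetylated form of cytidine that is abundant in ribosomal and transfer RNA and has been reported in messenger RNA. NAT10 is the enzyme that writes it, using acetyl-CoA and ATP. A peak is a stretch where antibody-bound fragments pile up, so a peak can be missing because the mark is missing, because the transcript is scarce or because reads are few. These cannot be told apart in the lists. Chromosome 20 carries a gene-dense long arm and, on its short arm, a stretch of long genes several of which are best known from the nervous system.

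Peak calls that reached the start of a transcript were few, and they are shown first because for these the RefSeq promoter windows reach into the peak. Of the narrow peaks (up to 1000 bp), 1 of 566 control peaks and 6 of 533 knockdown peaks began within the first 50 bases of a RefSeq start on the same strand. These are 0.177% (95% Wilson interval 0.0312 to 0.994) and 1.13% (0.517 to 2.43), against 0.372% and 0.481% on all other chromosomes. The knockdown peaks lay on PCNA, the sliding clamp of DNA replication, DSTN, the actin-depolymerizing factor destrin, AHCY, which hydrolyses S-adenosylhomocysteine, PMEPA1, ZNF217 and the noncoding RNA ADNP-AS1. The control peak lay on LOC105372523. Those whose peak began within 30 bases are printed 5′ to 3′ on the strand of the gene (GRCh38.p14, RefSeq). The 70 bases before the start are in lower case and the first 30 transcribed bases in capitals.
PCNA: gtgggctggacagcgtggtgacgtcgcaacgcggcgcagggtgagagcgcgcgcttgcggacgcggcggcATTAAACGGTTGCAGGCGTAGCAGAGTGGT
DSTN: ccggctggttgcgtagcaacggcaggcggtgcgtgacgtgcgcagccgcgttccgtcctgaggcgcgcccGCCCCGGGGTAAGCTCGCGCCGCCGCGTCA
AHCY: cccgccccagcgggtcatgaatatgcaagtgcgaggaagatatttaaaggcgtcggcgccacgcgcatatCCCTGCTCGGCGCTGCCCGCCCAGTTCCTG
ADNP-AS1: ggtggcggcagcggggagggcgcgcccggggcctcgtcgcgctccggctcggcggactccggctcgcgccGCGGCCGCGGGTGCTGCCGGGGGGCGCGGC
LOC105372523: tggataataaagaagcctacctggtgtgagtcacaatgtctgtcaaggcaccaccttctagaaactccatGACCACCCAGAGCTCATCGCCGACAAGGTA

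The printed stretch of PCNA is chr20:5119929-5120028 on the minus strand, and its knockdown peak began 1 base after the start, was 100 bp wide and had a score of 14.17. That of DSTN is chr20:17570005-17570104 on the plus strand, with a knockdown peak that began 25 bases after the start (score 10.87). That of AHCY is chr20:34303326-34303425 on the minus strand, again with a peak from 25 bases on (score 20.39). That of ADNP-AS1 is chr20:50930914-50931013 and that of LOC105372523 chr20:9562871-9562970, both on the plus strand. Cytidines made up 13.3% of the first 30 bases of PCNA, 43.3% of DSTN, 50% of AHCY, 33.3% of ADNP-AS1 and 36.7% of LOC105372523, and the median over 921 windows of the chromosome was 26.7%. The repeat CNNCNNCNNCNN, a spaced run of cytidines, was in the 300-base window of all of these genes on the transcribed strand. It was also in 78.9% of the 921 windows on that strand and in 94.0% on either strand, so holding it is the usual case for the chromosome. The AHCY, ADNP-AS1 and PMEPA1 peaks overlapped a control peak, and those of PCNA, DSTN and ZNF217 did not.

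The number of peaks on chromosome 20 was nearly the same in both lists, at 785 knockdown to 812 control peaks, a ratio of 0.967. This was the highest of the 22 autosomes, on which the other ratios ran from 0.691 to 0.936 with a median of 0.812. Next came chromosome 17 with 1901 to 2031 peaks. The class of peak mattered. Peaks of 1 to 10 kb numbered 154 in the control and 185 in the knockdown list (ratio 1.20), narrow peaks 566 and 533 (0.942) and peaks over 10 kb 92 and 67 (0.728). On all other chromosomes the same 3 ratios were 1.03, 0.809 and 0.572. Each ratio of chromosome 20 was therefore above that of the other chromosomes, and the order of the classes was the same. Peaks with a deposited score of 20 or more numbered 114 and 135 (ratio 1.18). At that threshold chromosome 20 ranked 3 of 22 and not first. Unequal sequencing depth between the arms, which the lists do not record, would move every one of these ratios.

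Along the chromosome the near-equal total was made of unequal parts. In windows of 5 Mb counted from the short-arm end, the first (0 to 5 Mb) had 90 control and 85 knockdown peaks. From 5 to 10 Mb the counts were 42 and 16, and from 10 to 15 Mb 43 and 15. These windows had the lowest ratios on the chromosome, 0.381 and 0.349. From 15 to 20 Mb there were 27 and 28 peaks, from 20 to 25 Mb 19 and 11, and from 25 to 30 Mb 20 and 27. From there on the counts ran closer together, with 91 and 94 from 30 to 35 Mb, 123 and 119 from 35 to 40 Mb, and 56 and 59 from 40 to 45 Mb. From 45 to 50 Mb there were 87 and 105, the largest gain in number. The last windows had 45 and 46, 51 and 51, and 118 and 129. The control list was densest from 35 to 40 Mb, at 24.6 peaks per Mb, and the knockdown list from 60 to 65 Mb, at 25.8. Among 5 Mb windows of all chromosomes with at least 40 control peaks, 10.8% of 342 had a ratio under 0.5, and on chromosome 20 this was 2 of 10. The median ratio was 0.80 over the 342 windows and 1.01 over the 10.

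**Figure D1:**
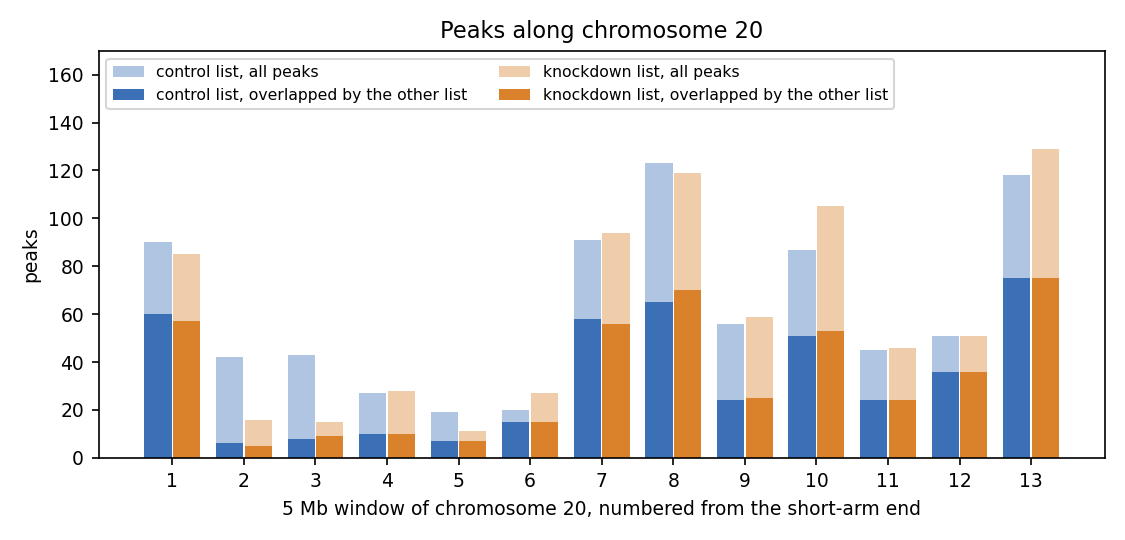
Peaks per 5 Mb window of chromosome 20 in the control list (blue) and the knockdown list (orange), with the part overlapped by the other list in full colour. The windows numbered 2 and 3 drop from 42 and 43 control peaks to 16 and 15, and the window numbered 10 rises from 87 to 105.

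The 10 Mb between 5 and 15 Mb had fewer peaks in the knockdown list. Of its 85 control peaks, 14 met a knockdown peak on their strand (16.5%, interval 10.1 to 25.8), where 425 of 727 did so in the rest of the chromosome (58.5%, 54.8 to 62.0). That share is bounded by the 31 knockdown peaks left. Of those 31, 14 met a control peak (45.2%, 29.2 to 62.2), and in the rest of the chromosome the share was 56.8% (53.2 to 60.3), inside that interval. The region held 34 protein-coding genes. Counting only peaks that overlapped a single annotated gene, 14 of them had a peak, with 45 control and 17 knockdown peaks in all. Of the 14, 9 had fewer knockdown peaks (64.3%, beside 39.1% on chromosome 20 and 46.6% over all chromosomes), 2 had more and 3 as many. Among the 13 that had control peaks, 4 kept none (30.8%, beside 22% on chromosome 20 and 28.9% over all chromosomes). With peaks that also overlap other genes, 21 genes had a peak. Of these, 15 had fewer knockdown peaks, 1 had more and 5 as many, and 9 kept none. A peak can then count for several genes, and the share over all chromosomes was not taken for that count. All protein-coding genes of the region, with or without a peak, had a median span of 48186 bp from 5 to 10 Mb and 36553 bp from 10 to 15 Mb. That of all protein-coding genes of the chromosome was 21.4 kb. The 14 genes with a peak had a median span of 57.4 kb, which is not comparable because genes without a peak are left out. PLCB1, a phospholipase C that G proteins activate, had 8 control and 0 knockdown peaks, and its relative PLCB4 6 and 2. SNAP25, a membrane fusion protein of synapses, had 12 and 4, the kinase gene PAK5 3 and 0, and BTBD3 2 and 0. CRLS1, which makes cardiolipin, had 0 and 2. JAG1, a Notch ligand, had 2 and 3, and 1 of the 3 lay on the strand opposite to the gene. With peaks that also overlap other genes JAG1 had 4 and 3, the opposite direction. PCNA had 2 and 1, or 2 and 2 with such peaks. PAK5, CRLS1, BTBD3 and JAG1 were singled out after their values were seen. Peaks with a score of 20 or more numbered 6 in both lists, so the net fall in this region was among lower scores. Without the region the chromosome had 727 control and 754 knockdown peaks, a ratio of 1.04.

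Markers of nerve and glia, counted over the whole genome, also had fewer knockdown peaks in sum. The 8 neuronal markers had 88 control and 15 knockdown peaks, with control peaks on all 8 genes and knockdown peaks on 5. TUBB3 went the other way, with 5 and 8, and the other 7 had 83 and 7. SNAP25 is also a gene of the region, and without it the list had 76 and 11. Of 6 astrocyte and oligodendrocyte markers, 3 had control peaks (15 in all) and 0 had a knockdown peak, and the defining genes GFAP and MOG had no peak in either list. The 10 cholangiocyte markers had 33 and 34 peaks on 7 genes, among them KRT7 and KRT19, while EPCAM and CFTR were among those with none. Hepatocyte markers had 2 and 2 peaks, immune markers 5 and 6 and fibroblast markers 4 and 1. Leaving out every peak on the 27 neuronal genes listed for chromosome 20, the chromosome had 713 control and 744 knockdown peaks (ratio 1.04), and the region from 5 to 15 Mb had 43 and 24 (0.558). That list was drawn up with earlier results of these data known. Its own ratio was 0.40 with peaks that overlap a single gene, and leaving out genes of a lower ratio raises the ratio of the rest. Input expression was not analysed here, and fewer cells of a type, less RNA per cell and less of the mark cannot be told apart.

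Peak counts per gene used peaks that overlapped a single annotated gene, 615 control and 634 knockdown peaks. A further 188 and 145 overlapped several genes and 9 and 6 none. Of 537 protein-coding genes on the chromosome, 233 had such a peak, 200 with control peaks and 189 with knockdown peaks, 156 with both. Of the 200, 44 had no knockdown peak (22%), beside 28.9% over all chromosomes, and of the 189, 33 had no control peak (17.5%), beside 20.0%. Of the 233 genes, 104 gained in peak number (44.6%, all chromosomes 35.2%), 91 had fewer (39.1%, all chromosomes 46.6%) and 38 as many. The median difference was 0 on chromosome 20 and over all genes. The promoter table gave the strand of 384 of the 537 genes. Where strand was known, 97.4% of control and 97.4% of knockdown peaks lay on the strand of their gene.

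A gene was taken to keep its peak number when its knockdown to control ratio lay from 0.7 to 1.4, among the 53 genes with at least 4 control peaks. Genes with 1 to 3 control peaks were left out because a single peak moves their ratio across the band. The cut looks at the control list alone, so it favours genes high in that list and tilts the classes towards lower ratios. It leaves out rises such as TRPC4AP (2 and 8), TPX2 (3 and 8) and SEC23B (0 and 4). Without it, more genes of the chromosome gained (104) than had fewer (91). The same cut was used for all chromosomes. Of the 53 genes, 23 kept their number (43.4%, interval 31.0 to 56.7), and over all chromosomes the share was 43.7% of 2347 genes. Genes near 1 were thus about as frequent on chromosome 20 as elsewhere. The other 2 classes were 21 genes under 0.7 (39.6%, interval 27.6 to 53.1), where all chromosomes had 47.4%, and 9 above 1.4 (17%, interval 9.20 to 29.2), where all chromosomes had 8.95%. No knockdown peak at all was left on 2 of the 53, PLCB1 and SLC24A3 (3.77%), beside 13.5% over all chromosomes. The median ratio was 0.889 (interquartile range 0.50 to 1.20) and 0.75 (0.25 to 1.00) over the genes of all other chromosomes. Just inside the band lay CENPB at 0.75 and CPNE1 and DIDO1 at 1.33. Just outside lay PTPRA and ADRM1 at 0.667, and ATP9A, YWHAB, RBCK1 and RALY at 1.5. On ADRM1, 3 of 6 control and 3 of 4 knockdown peaks lay on the strand opposite to the gene.

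**Figure D2:**
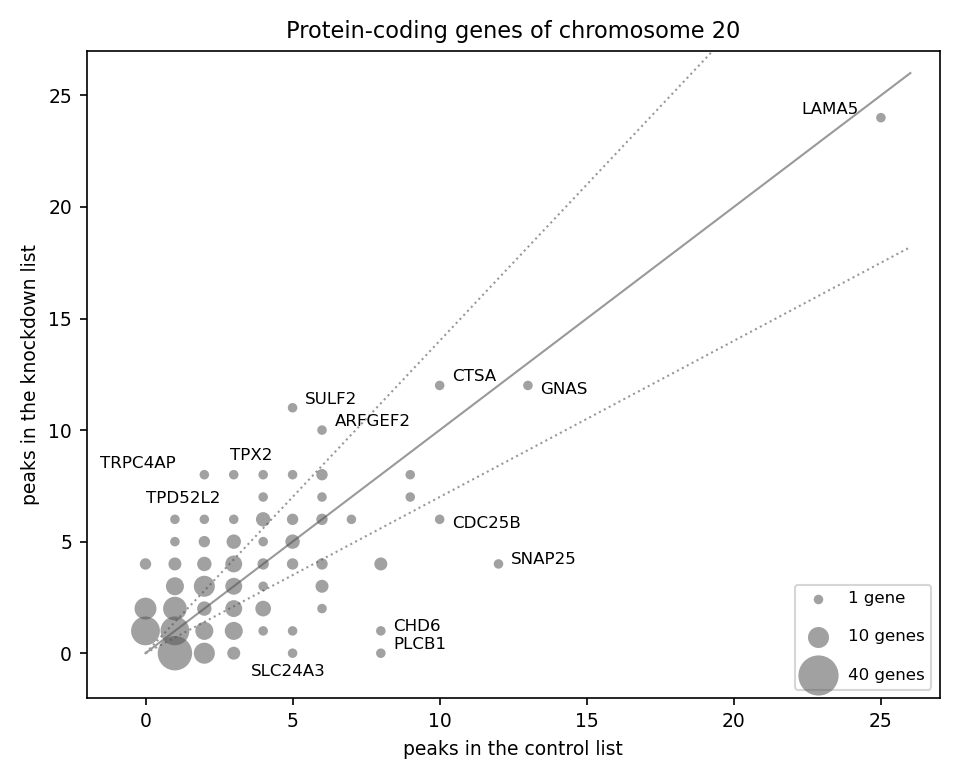
Protein-coding genes of chromosome 20 by number of peaks in the control list (x axis) and the knockdown list (y axis), counting peaks that overlap 1 gene, with point area growing with the number of genes. The solid line is a ratio of 1 and the dotted lines 0.7 and 1.4; LAMA5, GNAS and CTSA lie along the solid line, SNAP25, CHD6 and PLCB1 below the band, and SULF2, TRPC4AP and TPX2 above it.

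LAMA5, the alpha chain of basement membrane laminins, had the most peaks of any gene on the chromosome, 25 control and 24 knockdown peaks, all on the minus strand. Of the 25, 20 overlapped a knockdown peak, and 5 had identical coordinates in both lists. Its scores were low and even, from 10.29 to 16.34 among control peaks and from 10.27 to 15.95 among knockdown peaks. The gene lies at chr20:62309065-62367312. GNAS, which encodes the stimulatory G protein alpha subunit, had 13 and 12 peaks at chr20:58839748-58911192. Of the 13, 11 overlapped a knockdown peak and 7 were identical. The highest-scoring narrow control peak of the whole chromosome with a finite score was on GNAS, chr20:58910322-58910421, with a score of 270.4. The knockdown list held the same interval with an infinite score. Other GNAS peaks recurred at chr20:58909322-58909446, with a score of 104.6 in the control and 106.4 in the knockdown list.

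CTSA, a lysosomal carboxypeptidase that also protects other lysosomal enzymes, had 10 control and 12 knockdown peaks within a span of 7.49 kb. Of the 10, 8 were overlapped, and the highest in both lists was chr20:45897692-45897816. TGM2, a protein crosslinking enzyme, had 9 and 8 peaks, and all 8 knockdown peaks overlapped a control peak. ABHD12, a lysophospholipase, had 9 and 7. BCL2L1, an inhibitor of apoptosis, had 7 and 6. The calcium-dependent membrane binder CPNE1 and the chromatin reader DIDO1 both had 6 and 8. TAF4, a subunit of the general transcription factor TFIID, had 6 and 7, and ZMYND8, a reader of acetylated histones, 6 and 6. EEF1A2, a translation elongation factor, had 5 and 5, and every one of them overlapped a peak of the other list. The remaining genes near 1 were SLC2A4RG, MYBL2, PMEPA1, SRC, PLCG1, PIGT, STAU1, ITCH, NELFCD, CSNK2A1, TRIB3 and CENPB. They had 4 to 6 control and 3 to 6 knockdown peaks. Among narrow peaks alone, several of the genes near 1 fell outside the band. These were ABHD12 with 6 and 3, TGM2 with 6 and 4, ZMYND8 with 3 and 5 and MYBL2 with 3 and 2. TRIB3 with 4 and 2 and SRC with 3 and 2 also did so. All 4 control and 5 knockdown peaks of NELFCD lay on the strand opposite to the gene, as did 3 of 7 and 2 of 6 of BCL2L1.

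An equal number did not always mean the same peaks. Over the 23 genes near 1, 117 of 159 control peaks (73.6%) overlapped a knockdown peak. In 4 of the 23 genes every control peak was overlapped. These were EEF1A2, SLC2A4RG, TRIB3 and PIGT. TAF4 and DIDO1 each had 3 of 6 control peaks overlapped, SRC had 3 of 5 and CSNK2A1 2 of 4. In the 21 genes under 0.7, 43 of 132 control peaks were overlapped (32.6%), and in the 9 genes above 1.4, 26 of 40 (65.0%). Of the knockdown peaks, 75.6% were overlapped in the genes near 1, 70.4% in those under 0.7 and 38.2% in those above 1.4. On all other chromosomes the same classes had 70.6%, 20.1% and 77.9% of control peaks and 71.1%, 68.3% and 49.8% of knockdown peaks overlapped. These shares follow in part from the peak numbers that defined the classes. The genes near 1 had a median span of 58.2 kb, those under 0.7 of 94.3 kb and those above 1.4 of 86.1 kb. On all other chromosomes the medians were 40.8, 114 and 64.7 kb, so genes under 0.7 were longest in both.

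Counting peaks that overlap a single gene, the largest drops on the chromosome were on SNAP25, PLCB1 and CHD6, a chromodomain helicase. SNAP25 had 12 control and 4 knockdown peaks, PLCB1 8 and 0 and CHD6 8 and 1. With peaks that also overlap other genes, the largest drop was on FLRT3, with 11 and 0. PLCB1 then had 10 and 0, MACROD2 11 and 2, SNAP25 13 and 4 and PTPRT 9 and 1. FLRT3 lies within the span of MACROD2, so a peak can count for both. In SNAP25, all 4 knockdown peaks overlapped a control peak. The 3 on the plus strand lay in the last 1 kb of the gene, and the other was a span of 101434 bp with a score of 0 on the minus strand, identical in both lists. The 8 control peaks of PLCB1 scored from 10.09 to 12.53. None of the 8 CHD6 control peaks overlapped its single knockdown peak, which scored 31.72. SLC24A3, a sodium, potassium and calcium exchanger, had 5 and 0. The splicing cofactor RBM39 had 5 and 1, RPN2, a subunit of the oligosaccharyltransferase, 8 and 4, and the Polycomb-associated regulator ASXL1 8 and 4. All 4 ASXL1 knockdown peaks overlapped control peaks. PLCB4 held the fourth highest finite score among narrow control peaks, 69.26 at chr20:9473282-9473381, and it had no counterpart.

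The largest rises were smaller in number. SULF2, a secreted enzyme that edits heparan sulfate, went from 5 to 11 peaks, with 3 of the 11 overlapping a control peak. TRPC4AP, an adaptor of a ubiquitin ligase, went from 2 to 8, and TPX2, a spindle assembly factor, from 3 to 8. All control peaks of both genes were overlapped. In each gene 3 of the 8 knockdown peaks met a control peak and the others met none. TPD52L2 went from 1 to 6 and ARFGEF2, an exchange factor for ARF proteins at the Golgi, from 6 to 10. SEC23B, a COPII coat component, had 0 and 4, with scores from 11.20 to 31.63. SGK2, a kinase, had 1 and 5, and MTCL2, a microtubule crosslinker, 4 and 8.

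**Figure D3:**
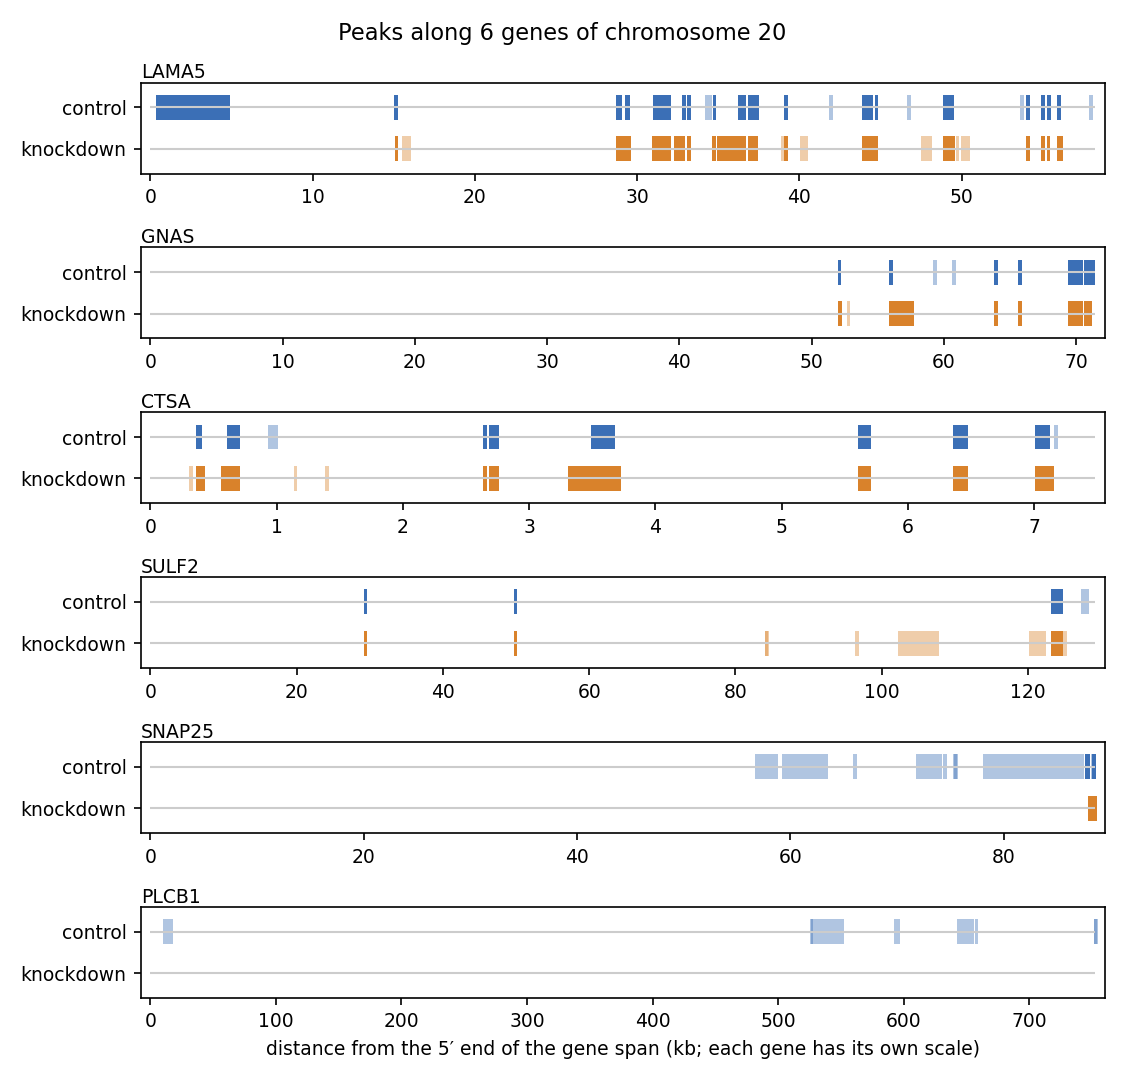
Peaks on 6 genes of chromosome 20 by distance from the 5′ end of the gene span in kb, control list above (blue) and knockdown list below (orange), on the strand that holds most peaks of the gene, so the minus-strand span on SNAP25 and a plus-strand control peak on SULF2 are not drawn. Peaks that also overlap another gene are left out, so a peak in full colour can lack a drawn partner. Full colour marks peaks overlapped by the other list and pale colour those that were not; LAMA5, GNAS and CTSA show mostly full colour, SULF2 has pale knockdown peaks, and SNAP25 and PLCB1 have pale control peaks.

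Gene groups were counted against the background of all protein-coding genes with any peak, of which 35.2% had more and 46.6% fewer knockdown peaks. The members counted lie on chromosome 20, where these shares were 44.6% and 39.1%, and that is the nearer background. Their members were chosen from knowledge of the chromosome with earlier results of these data known, and some genes belong to more than 1 list. Of 19 splicing and RNA binding genes with a peak, 14 had more knockdown peaks, 3 fewer and 2 as many, with 42 control and 56 knockdown peaks in all. PRPF6, a component of the spliceosomal tri-snRNP, had 4 and 7, RALY 4 and 6, and the double-stranded RNA binder STAU1 5 and 4. NELFCD had 4 and 5, all on the opposite strand, and without it the list had 13 genes with more and 3 with fewer. Of 21 genes for secreted, lysosomal and metabolic enzymes, 15 had more and 4 fewer (39 and 56 peaks). There, GSS, which makes glutathione, had 3 and 4, AHCY 3 and 4 and the cathepsin gene CTSZ 3 and 4. Of 20 membrane traffic genes, 9 had more and 8 fewer (71 and 81 peaks), and ATP9A, a lipid flippase, had 4 and 6. That list also held LAMA5, an extracellular matrix gene, and without it 9 of 19 had more and 7 fewer (46 and 57 peaks).

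Other groups were near equality or below it. Of 22 genes of translation and protein quality control, 9 had more and 9 fewer (55 and 56 peaks). RRBP1, a ribosome receptor of the endoplasmic reticulum, had 5 and 8, and PIGT, a subunit of the GPI transamidase, 5 and 6. Of 23 replication, repair and cell cycle genes, 6 had more and 10 fewer (57 and 54 peaks), with the phosphatase CDC25B at 10 and 6 and the transcription factor MYBL2 at 5 and 5. Of 24 chromatin and transcription regulators, 8 had more and 11 fewer (77 and 65 peaks). Of 22 signalling and adhesion genes, 8 had more and 13 fewer (107 and 96 peaks). Of 16 neuronal genes, 3 had more and 9 fewer (50 and 20 peaks). Of these 16, 8 had control peaks only and 1 knockdown peaks only. In the other lists 1 to 5 genes had control peaks only. Among all genes with control peaks, 22% on chromosome 20 and 28.9% over all chromosomes had no knockdown peak. DLGAP4, a postsynaptic scaffold gene, was among the 3 neuronal genes with more, with 3 and 4. The median difference per gene was 1 for the splicing and the enzyme lists, -1 for the signalling and the neuronal lists and 0 for the rest.

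The median width was 150 bp among control and 175 bp among knockdown peaks (interquartile ranges 75 to 1792 and 75 to 1802), and among narrow peaks it was 100 bp in both. The narrowest peaks were 25 bp, 99 and 119 in number, and 58.3% and 54.0% of widths were whole multiples of 25 bp. A peak is written as a single block, so a wide span can cross introns and its width is no length of RNA. The widest control peak, 407775 bp on MACROD2 with a score of 0, had no counterpart. The widest knockdown peak, 315222 bp on CDH4 with a score of 0, was identical in both lists.

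Sharing between the lists was 54.1% of control peaks (439 of 812, interval 50.6 to 57.5) and 56.3% of knockdown peaks (442 of 785, 52.8 to 59.7). Over all chromosomes 45.5% and 55.6% were shared. The like gene-dense chromosomes 17, 19 and 22 had 56.3%, 59.9% and 48.3% of control peaks and 59.5%, 67.6% and 55.9% of knockdown peaks shared. A share of control peaks can only be as high as the number of knockdown peaks allows, so it is not independent of the ratio. Identical coordinates in both lists were found for 159 peaks, 19.6% of the control and 20.3% of the knockdown list. Sharing was more frequent at higher scores. Among control peaks it was 39.2% of 181 at scores of 10 to 11, 74.2% of 97 from 20 to 50, and 88.2% of 17 (65.7 to 96.7) at 50 or more. Among knockdown peaks it was 41.8% of 146, 70.9% of 110, and 25 of 25 (86.7 to 100).

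**Figure D4:**
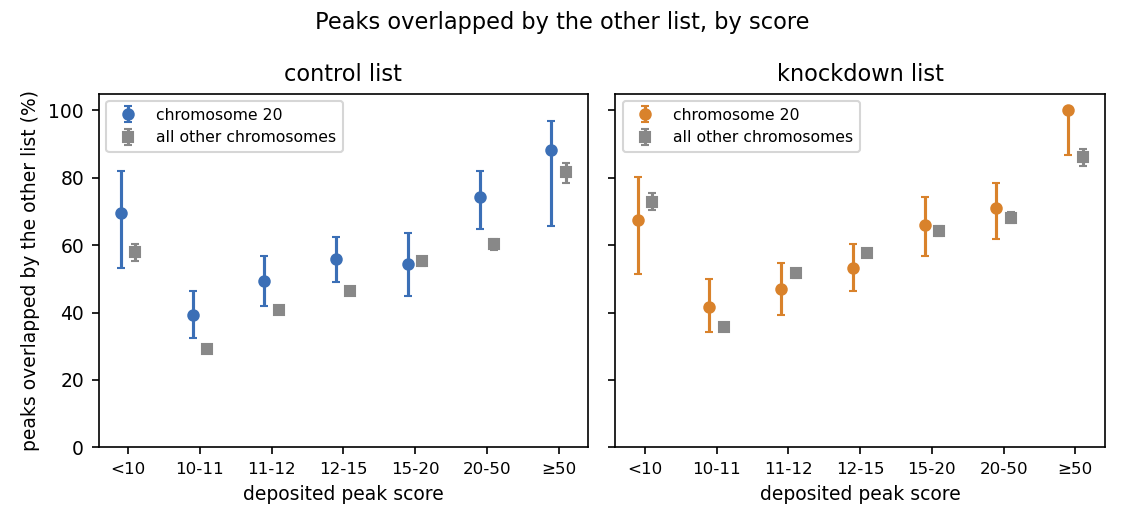
Percentage of peaks overlapped by the other list for each class of deposited score, for chromosome 20 (coloured points) and all other chromosomes (grey squares), control list on the left and knockdown list on the right, with 95% Wilson intervals as bars. On chromosome 20 the points rise from 39.2% and 41.8% at scores of 10 to 11 to 88.2% and 100% at 50 or more; peaks under 10 lie off this order.

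Within genes, narrow peaks were more often near the 3′ end than near the 5′ end. Ends were set by the strand of the peak, so peaks opposite to their gene, as on NELFCD, have the ends swapped. In the control list 129 of 437 narrow peaks in protein-coding genes fell in the last 10% of the span (29.5%, interval 25.4 to 34.0), and 26 in the first 10% (5.95%). In the knockdown list it was 100 of 427 (23.4%, 19.7 to 27.7) and 28 (6.56%). The intervals of the lists overlap for both ends. On all other chromosomes the last 10% held 30.6% and 22.5%, and the first 10% held 7.26% and 9.18%.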

How the data were processed

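The submitters' processing notes name hg38, Bowtie2 2.4.1 and fastp 0.20.1. Which caller made the peaks, at which threshold, and how inputs and replicates entered, was not given in the sources used here. For each arm the authors deposited 1 interval list with a score per peak on an unstated scale. Scores are the authors' own and served to filter and rank peaks of the same list. By its name the control list was matched and the remaining list taken as knockdown.

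Coordinates are printed 1-based. Overlap meant at least 1 bp on the same strand. Peaks were assigned on either strand to RefSeq gene spans (GRCh38.p14), so introns count, and overlapping genes and near-identical copies are uncertain. Windows took a peak by its midpoint. Intervals are 95% Wilson intervals, cover counting error only and treat peaks as independent. No test between arms was made.

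The members, gene lists and settings were chosen with earlier results of these data known. Named genes were the 10 near 1 with the most peaks, the 8 largest drops and 8 largest rises, genes of the 5 highest narrow peaks per list and up to 4 per gene list. Python 3.11.15, NumPy 2.4.6, pandas 2.3.3, SciPy 1.17.1 and matplotlib 3.10.9 were used. The overlap code gave the same count as bedtools 2.31.1 and was tested on shifted copies of peaks. Alternatives changed score, width, list length, merging, overlap, strand, assignment, ratio band and window size.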

Additional observations from a re-analysis of the deposited data

How the results depend on the processing

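No paired analysis was possible because the lists do not separate replicates, and for the same reason no replicate could be left out. The ratio of peak numbers on chromosome 20 was 1.18 at a score of 20 or more and 1.18 after the control list was cut, by score, to as many peaks as the knockdown list. It lay from 0.942 to 0.964 with narrow peaks, merged peaks or scores of 10 or more, and was 1.04 without the windows from 5 to 15 Mb or the neuronal list. The last 3 settings were chosen after seeing the data. The shared part of control peaks was 38.8% with reciprocal overlap of 50%, 44.0% with both lists reduced to narrow peaks, 50% with both reduced to scores of 20 or more and 58.5% without 5 to 15 Mb. That of knockdown peaks was 40.1%, 47.7% and 42.2% in the first 3 of these settings. The knockdown list was densest in the window starting at 30 Mb for windows of 10 Mb and at 35 Mb for windows of 2.5 Mb, not at 60 Mb. Genes near a ratio of 1 numbered 35 with at least 3 control peaks, 11 with at least 6, 38 with all overlapping peaks and 2 at a score of 20 or more. At that score only 3 genes had at least 4 control peaks. By strand, a setting added after seeing the data, they numbered 23. By class of ratio (under, near 1 or above), 32 named genes stayed the same with narrow peaks and 8 moved. At a score of 20 or more 14 stayed, 11 moved to a neighbouring class and 2 reversed. The other named genes, LAMA5 and PLCB1 among them, had no counted peak of that score in either list and could not be checked. The reversed genes were CDC25B and RBM39. Both had 0 control peaks and 1 knockdown peak at that score, a difference of 1 against the direction given. The cause of these shifts was not tested beyond the smaller number of peaks or genes that a stricter setting keeps.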

Other observations

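Some of the highest scores on chromosome 20 lay outside protein-coding genes. On the minus strand, 2 control peaks had infinite scores and overlapped no annotated gene, chr20:26209460-26209764 and chr20:26209815-26249564. The narrower had no knockdown counterpart and the wider, 39750 bp, did. On the pseudogene RPL41P1, a copy of a ribosomal protein gene, the 75 bp interval chr20:21755270-21755344 was in both lists, with scores of 65.94 in the control and 80.03 in the knockdown list. FTLP1, a copy of the ferritin light chain gene, had a knockdown peak with a score of 57.99 that a control peak overlapped. Reads of such copies can come from the parent gene. Pseudogenes held 24 control and 26 knockdown peaks that overlapped a single gene, transcribed pseudogenes a further 2 in the knockdown list, and long noncoding RNA genes 6 and 4.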
